A study of Drosophila melanogaster with 17 samples.

Results

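The response of midgut progenitor cells to a forced homodimer of Daughterless (da:da) was set against their response to ordinary, monomeric Daughterless (da), gene by gene. For each gene the quantity described is a difference of log2 changes: da:da overexpression in batch 2 minus the control of batch 2, less da overexpression in batch 1 minus the control of batch 1. A positive difference means that the gene rose more, or fell less, with da:da than with da. Every gene whose counts passed a filter on low values entered, 14083 of the 17807 genes in the count files, and 11 of the 17 libraries of the series belong to the 4 groups compared. The remaining libraries, with da knocked down in batch 1 or scute overexpressed in batch 2, entered the same fit and its estimate of spread.

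All flies carried esg-Gal4, UAS-GFP and tub-Gal80[ts], the controls included, so that a responder was expressed where the escargot driver is active, in intestinal stem cells and enteroblasts. The da:da group carried UAS-da:da in addition (3 libraries) and was compared with driver-only controls of batch 2 (3 libraries). The da group carried UAS-da (2 libraries) and was compared with driver-only controls of batch 1 (3 libraries). Adult flies raised at 18 °C spent 2 days at 29 °C, which inactivates Gal80. About 100 midguts were pooled for each library, 20000 to 40000 GFP-positive cells were sorted from them, and the RNA was amplified (PicoPure and RiboAmp kits) before stranded mRNA libraries were made. The p-values therefore measure the spread between pools of guts of each genotype. In bulk RNA of this kind, fewer cells of a type and less RNA per cell cannot be told apart.

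Daughterless is the fly E protein, a basic helix-loop-helix (bHLH) transcription factor that binds DNA as a homodimer or paired with a tissue-specific bHLH partner such as the proneural protein Scute. Extramacrochaetae (Emc) is a helix-loop-helix protein without a basic region, which holds such factors away from DNA. In the adult midgut the stem cell renews itself and gives rise to enteroblasts, which become absorptive enterocytes under Notch signalling, and to hormone-secreting enteroendocrine cells, which depend on proneural genes and on prospero. Joining 2 copies of Da in a tether favours the homodimer, whereas free Da can also pair with other bHLH proteins, and the comparison asks which genes respond alike to both.

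The transgenes were read first. The da gene (FBgn0267821, chromosome arm 2L, bases 10388105 to 10393228 of BDGP6.28) had 196, 161 and 165 CPM (counts scaled to a common library size) in da:da libraries, against 59.1, 61.2 and 61.7 CPM in control batch2. It had 1064 and 1159 CPM in da libraries, against 123, 143 and 178 CPM in control batch1. Both groups stood apart from their controls, and the rise with da:da (1.52 ± 0.15 on the log2 scale, estimate ± SE) was smaller than the rise with da (2.91 ± 0.16). The difference was -1.39 ± 0.22, with an adjusted p of 0.000554 (edgeR quasi-likelihood test, Benjamini-Hochberg over all genes tested, as for every adjusted p of a single gene below). Reads of the transgenes and of the resident gene cannot be told apart in these counts, and 10.1% of the exon bases of da overlap another gene.

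The sorted cells held the progenitor marker esg in all 11 libraries. It stood at 704, 750 and 764 CPM in da:da libraries, against 495, 535 and 498 CPM in control batch2, and at 942 and 838 CPM in da libraries, against 734, 724 and 983 CPM in control batch1. Its difference was not called (0.41 ± 0.22, 95% interval -0.05 to 0.87, adjusted p = 0.323), and neither were those of Su(H) (0.46 ± 0.21), klu (-0.09 ± 0.23) and the enterocyte regulator nub (0.43 ± 0.51). The stem cell ligand Dl had 198 and 59.7 CPM in the 2 da libraries, which are far apart, against 207, 181 and 79.6 CPM in control batch1, and its difference was 0.79 ± 0.53. Leaving out replicate 1 of da moved that difference to 1.90, with an adjusted p of 0.0283.

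Summed over marker lists, the enteroendocrine and tracheal sums stood furthest from those of the controls. Every da:da library lay above control batch2 in the enteroendocrine sum, and the da libraries lay on either side of control batch1. The 12 enteroendocrine markers summed to 3883 to 6647 CPM in da:da libraries and 3239 to 3563 CPM in control batch2, but to 113 and 714 CPM in da libraries and 274 to 366 CPM in control batch1. The 9 tracheal markers summed to 39.1 to 45.6 CPM in da:da libraries, 30.9 to 31.9 CPM in control batch2, 112 to 136 CPM in da libraries and 40.3 to 53.9 CPM in control batch1. Sums of visceral muscle, haemocyte, neuron and glia, fat body, germline, Malpighian tubule, enterocyte and progenitor markers differed from their control's nearest library by less than 1.5 times in every library. Counts assigned to genes ranged from 34170615 to 39205612 in batch 1 and from 47136298 to 66679229 in batch 2, with 11956 to 12432 genes detected in batch 1 and 15796 to 16135 in batch 2. The da:da and da groups lie in different batches, so what a batch does to a response, rather than to a level, cannot be told apart from the construct.

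Across genes the responses ran in the same direction for most called genes, and the da response was the wider one. At an adjusted p under 0.05, 1362 genes (9.67% of those tested) were called with da:da, 683 up (4.85%) and 679 down (4.82%). With da 2974 genes (21.1%) were called, 1604 up (11.4%) and 1370 down (9.73%). Of the genes called up with da:da, 88.0% also had a positive da change, and of those called down 83.2% had a negative one, whereas 44.3% of all tested genes had a positive da change. Over the 9494 genes that passed the filter within each batch, the changes had a Pearson correlation of 0.466 and a Spearman correlation of 0.438 across genes, which are not independent replicates. Over all 14083 tested genes the values were 0.289 and 0.287. Over the 5909 of the 9494 with at least 10 CPM in one of the 4 groups, Pearson's value was 0.645. The standard deviation across the 9494 genes was 0.665 for the da:da change and 1.33 for the da change. Across the 5909 genes it was 0.678 for the da:da change and 1.03 for the da change. With each batch fitted alone, the counts of called genes lay closer, 1690 with da:da and 2185 with da.

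**Figure D1:**
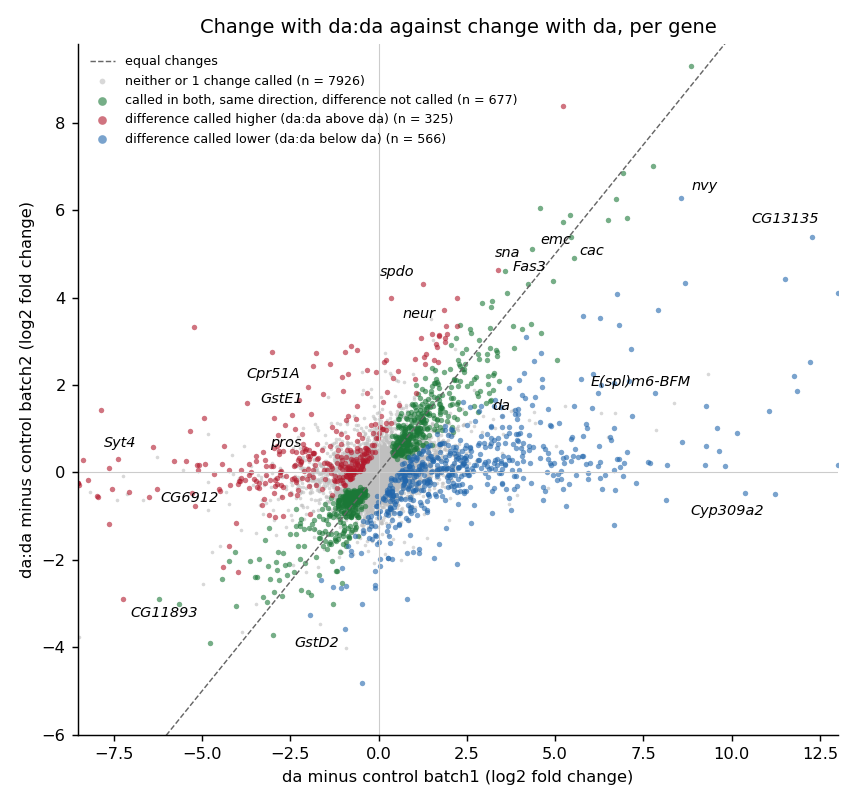
Log2 change with da:da (vertical, da:da minus control batch2) against log2 change with da (horizontal, da minus control batch1) for the 9494 genes that passed the filter in each batch, 1 point a gene. Green points were called in both changes, in the same direction, with no called difference. Their place near the dashed line of equal changes follows from that choice. Blue points (difference called lower) spread to the right near a da:da change of 0, and 4 genes past the horizontal limits are drawn at the edge.

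In all, 467 genes (3.32%) rose in both changes and 347 (2.46%) fell in both. The 467 are 68.4% of the genes up with da:da and 29.1% of those up with da, and the 347 are 51.1% and 25.3% of those down. For 683 of these 814 genes the difference was not called, and for 434 its 95% interval lay wholly within -1 to 1, so that a 2-fold disparity in either direction lay outside the interval. These 434 are 53.3% of the 814. The share was 35.7% of all genes tested and 53.0% of the 9494 that passed the filter in each batch, so it does not set the shared genes apart. In 47.5% of all tested genes the da:da libraries and the da libraries did not overlap once the mean of their own controls was subtracted. The median change of the 467 genes was 1.24 with da:da and 1.42 with da, and that of the 347 genes was -0.76 with da:da and -0.88 with da. The da:da change was the larger in size for 170 of the 467 and 117 of the 347.

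The difference itself was called for 985 genes (6.99%), 352 higher with da:da (2.5%) and 633 lower (4.49%). Among the 633, 419 rose with da and were not called with da:da, 84 rose in both, and 82 fell with da:da and were not called with da. Among the 352, 232 fell with da and were not called with da:da, 43 rose with da:da alone and 25 rose in both. In all, 46 genes (0.327% of those tested) were called in opposite directions, 23 each way. The difference was called for all 46, which are among the 985. With each library scaled by its total counts, without TMM factors, 456 genes were called higher and 477 lower, so that 48.9% of the calls were higher, against 35.7% with TMM factors. That scaling moved the median difference of all tested genes to 0.157, against 0.0314 with TMM factors.

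The HLH gene emc, the antagonist of Da, rose strongly in both (FBgn0000575, chromosome arm 3L, bases 749400 to 753492). It had 1366, 1350 and 1321 CPM in da:da libraries, against 31.2, 37.2 and 48.6 CPM in control batch2. In da libraries it had 1024 and 921 CPM, against 51.8, 48.1 and 44.3 CPM in control batch1. No library of either overexpression came near a control, with a 34.5-fold rise with da:da and a 20.2-fold rise with da. The difference of 0.77 ± 0.23 (95% interval 0.28 to 1.26) had an adjusted p of 0.057. It was past the threshold in 6 of 11 alternative fits (0.73 to 0.91 over the 11, adjusted p 0.0289 to 0.0477 in the 6), and without replicate 3 of control batch2 (0.96, adjusted p = 0.0137) or replicate 2 of the da knock-down (0.77, adjusted p = 0.0458).

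The proneural gene sc fell in both. It had 0.232, 0.368 and 0.458 CPM in da:da libraries, against 1.35, 1.38 and 1.43 CPM in control batch2, and 0.987 and 0.61 CPM in da libraries, against 4.39, 3.89 and 2.78 CPM in control batch1. The falls were 3.92-fold with da:da and 4.7-fold with da, and their difference was 0.26 ± 0.41 (95% interval -0.60 to 1.12). Among the 27 tested bHLH and HLH partners, 3 rose and 3 fell with da:da, and 6 rose and 5 fell with da. Shares of all genes tested were 4.85% up and 4.82% down with da:da, and 11.4% up and 9.73% down with da. The difference of these partners was called higher for 2 and lower for 2, beside 2.5% and 4.49% of all genes. The 2 higher ones were ase and dimm, described with the enteroendocrine genes, and da itself was one of the lower ones. The proneural gene tap was not called in any of the 3 tests (difference -1.09 ± 1.03), and its level was 8.93 to 15.9 CPM with da:da, 5.14 to 7.61 CPM in control batch2, 0.114 and 1.31 CPM with da, and 0.149 to 0.231 CPM in control batch1.

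Genes of the Enhancer of split complex, the bHLH repressors and Bearded-family proteins switched on by Notch, held members that rose alike, members that rose more with da, and members called in neither change, such as E(spl)malpha-BFM, E(spl)m2-BFM and E(spl)m4-BFM. E(spl)m8-HLH had 13.2, 11.3 and 11 CPM in da:da libraries, against 1.58, 2.01 and 2.72 CPM in control batch2, and 29.7 and 21.7 CPM in da libraries, against 6.16, 6.07 and 3.54 CPM in control batch1. Its rises of 2.49 ± 0.22 with da:da and 2.29 ± 0.24 with da differed by 0.20 ± 0.33 (95% interval -0.49 to 0.89). E(spl)mgamma-HLH rose by 0.69 ± 0.16 with da:da and 0.65 ± 0.18 with da, with a difference of 0.04 ± 0.25. Those rises of E(spl)mgamma-HLH rest on single libraries: the call with da:da ended without replicate 1 or 2 of control batch2 (adjusted p 0.0603 and 0.0605), and that with da without replicate 1 or 3 of control batch1 or replicate 1 of da (adjusted p 0.053 to 0.31).

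E(spl)m6-BFM, a Bearded-family member, showed a wide gap. It had 27.5, 21 and 15.2 CPM in da:da libraries, against 3.62, 4.81 and 6 CPM in control batch2, whereas da libraries had 325 and 267 CPM, against 6.6, 5.32 and 4.73 CPM in control batch1. From like control levels it rose 4.41-fold with da:da and 53.3-fold with da, a difference of -3.59 ± 0.52 (adjusted p = 0.000258). E(spl)m7-HLH had 16.6, 17.8 and 14.4 CPM in da:da libraries, against 3.91, 6.85 and 7.77 CPM in control batch2, and 145 and 142 CPM in da libraries, against 22.3, 16.8 and 20.9 CPM in control batch1. Its difference was -1.45 ± 0.35 (adjusted p = 0.0167), and without replicate 2 of da -1.46 (adjusted p = 0.051). Over the 19 tested genes of the Notch response list, 5 rose and 1 fell with da:da, 8 rose and 2 fell with da, 5 rose in both, and the difference was called for 2, both lower, beside 6.99% of all genes. The median difference of the list was -0.026, against 0.0314 for all genes tested, and it was 0.139 when libraries were scaled by total counts. Among all genes, 4.85% rose and 4.82% fell with da:da, 11.4% rose and 9.73% fell with da, and 3.32% rose in both.

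Among regulators of Notch trafficking and asymmetric division, spdo, neur and mira rose in both and more with da:da. Sanpodo (spdo, FBgn0260440, chromosome arm 3R, bases 30476684 to 30478849), a transmembrane protein that acts on Notch in dividing precursors, had 69.8, 62.1 and 40.2 CPM in da:da libraries, against 2.00, 3.35 and 3.26 CPM in control batch2. In da libraries it had 27.7 and 26.3 CPM, against 13.8, 12.7 and 7.40 CPM in control batch1. The da:da libraries were above the da libraries while their controls were below those of da, so the 20.0-fold rise with da:da and the 2.39-fold rise with da differed by 3.07 ± 0.41 on the log2 scale (adjusted p = 0.000161).

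Neuralized (neur), the ubiquitin ligase that drives Delta endocytosis, had 184, 174 and 157 CPM in da:da libraries, against 13.4, 18.8 and 18.1 CPM in control batch2, and 109 and 99.4 CPM in da libraries, against 32.9, 25.1 and 24.8 CPM in control batch1. Its rises of 10.3-fold with da:da and 3.78-fold with da differed by 1.44 ± 0.27 (adjusted p = 0.00285). Since 38.8% of its exon bases overlap another gene and counting ignored strand, part of these reads may belong to that gene. Miranda (mira), an adaptor that segregates determinants in dividing stem cells, had 487, 437 and 428 CPM in da:da libraries, against 46.8, 75.1 and 63.2 CPM in control batch2, and 202 and 162 CPM in da libraries, against 51.6, 65.6 and 56.1 CPM in control batch1. With control levels that overlap, the rises were 7.31-fold with da:da and 3.15-fold with da (difference 1.21 ± 0.28, adjusted p = 0.0116, and 1.06 with an adjusted p of 0.0766 without replicate 2 of da). By contrast bib, a channel-like membrane protein of the Notch pathway, rose by 1.49 ± 0.23 with da:da and 1.36 ± 0.26 with da, a difference of 0.13 ± 0.35. Of the 21 tested Notch ligands, receptor and trafficking genes, 3 rose with da:da, all 3 also with da, and 6 rose with da. The difference was called higher for 2, spdo and neur, and lower for 2, fng and nuf, beside 2.5% and 4.49% of all genes. The median difference of the list was -0.18. Rises over all genes tested made up 4.85% with da:da and 11.4% with da. The glycosyltransferase gene fng rose 2.08-fold with da and was not called with da:da (-0.39 ± 0.26), a difference of -1.44 ± 0.38 (adjusted p = 0.0279). That call ended without replicate 1 or 3 of control batch1, 1 or 2 of da, 1 of control batch2 or 3 of da:da (adjusted p 0.0547 to 0.0908). The difference of nuf, a gene of endosomal recycling, was -0.74 ± 0.22 (adjusted p = 0.0446), with neither change called, and its call ended without replicate 1 or 2 of control batch1, 1 or 2 of da, 2 or 3 of control batch2, 1 or 2 of da:da or 1 or 2 of scute (adjusted p 0.0547 to 0.114).

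In the EGF receptor pathway 2 genes, Egfr and edl, rose more with da:da, and rho rose more with da. Egfr had 430, 441 and 442 CPM in da:da libraries, against 76.7, 112 and 109 CPM in control batch2, and 208 and 144 CPM in da libraries, against 73.6, 95.1 and 90.5 CPM in control batch1. The 4.41-fold rise with da:da and the 2.04-fold rise with da differed by 1.11 ± 0.31 (adjusted p = 0.0391). That call ended without any one of 8 libraries (replicates 2 and 3 of control batch1, 2 of da, 1 of control batch2, 1, 2 and 3 of da:da and 2 of scute), with adjusted p-values of 0.0573 to 0.191, and with the replicate block (0.0831). Its rise with da alone was not called without replicate 1 of da (0.73, adjusted p = 0.0756). The Ets regulator edl had 262, 261 and 212 CPM in da:da libraries, against 14.9, 15.6 and 25.4 CPM in control batch2, and 504 and 298 CPM in da libraries, against 140, 98.1 and 94.7 CPM in control batch1. Its 13.1-fold rise with da:da and 3.61-fold rise with da differed by 1.86 ± 0.35 (adjusted p = 0.00293), although its level was higher in the da libraries. The ligand gene vn fell in both, by 3.54-fold with da:da and 2.13-fold with da, with an uncalled difference of -0.73 ± 0.33. Over the 21 tested genes of the pathway, 4 rose and 1 fell with da:da, and all 5 moved the same way with da, where 7 rose and 2 fell. Over all genes tested, 4.85% rose with da:da and 11.4% with da. The difference was called higher for 2 and lower for 1 of the 21, beside 2.5% and 4.49% of all genes. Its median over the pathway was -0.20. The lower one was rho, a protease that releases EGF receptor ligands, with 35.4, 41.6 and 41.7 CPM in da:da libraries, against 22.7, 19 and 22.5 CPM in control batch2, and 44.5 and 49 CPM in da libraries, against 17, 14.5 and 13.5 CPM in control batch1. Its difference of -0.75 ± 0.22 (adjusted p = 0.0417) lost its call without replicate 2 or 3 of control batch1, 1 or 2 of da, 1 or 3 of control batch2, 1 or 2 of da:da or 3 of the da knock-down (adjusted p 0.053 to 0.14), and with total-count scaling (0.157).

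The zinc-finger repressor sna followed edl: 134, 129 and 134 CPM in da:da libraries stood against 4.47, 5.80 and 5.81 CPM in control batch2, and 484 and 355 CPM in da libraries against 39.9, 50.3 and 30 CPM in control batch1. The rises were 24.7-fold with da:da and 10.5-fold with da, a difference of 1.24 ± 0.32 (adjusted p = 0.0268). It lost its call without replicate 1 or 2 of control batch1, 2 of da, 1 of control batch2 or 1 of da:da (adjusted p 0.0521 to 0.141) and in a limma fit on log2(CPM + 1) (0.0671).

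**Figure D2:**
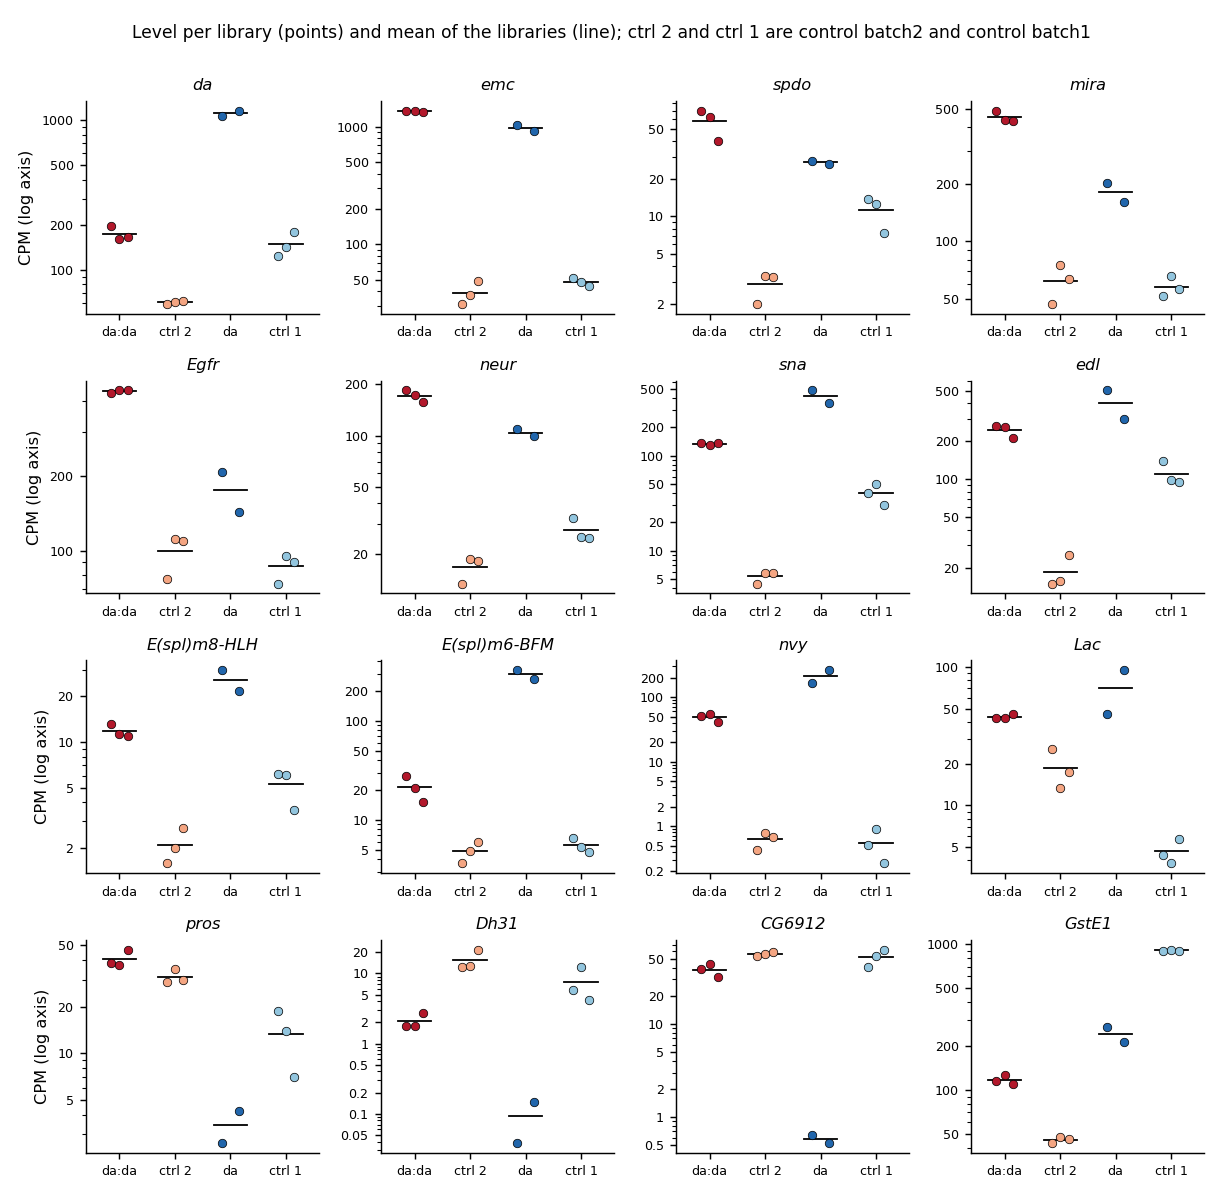
CPM per library on log axes for 16 genes, in the order da:da, control batch2 (ctrl 2), da and control batch1 (ctrl 1), with points for libraries and a line at their mean. The gene emc lies near 1000 CPM in both overexpressions, E(spl)m6-BFM and nvy stand higher in da than in da:da from like control levels, and GstE1 lies above its control with da:da and below it with da.

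Nervy (nvy), a corepressor of the ETO family, rose in both and more with da. It had 51.6, 54.6 and 40.9 CPM in da:da libraries, against 0.434, 0.779 and 0.674 CPM in control batch2, and 164 and 262 CPM in da libraries, against 0.505, 0.897 and 0.264 CPM in control batch1. The groups are far apart in both batches, and the difference of the rises was -2.27 ± 0.48 (adjusted p = 0.00571, and 0.0698 with limma-voom). Hsc70-1, a heat shock cognate, had 8.19, 7.97 and 6.62 CPM in da:da libraries, against 0.391, 0.365 and 0.364 CPM in control batch2, and 31.4 and 56.0 CPM in da libraries, against 0.126, 0.120 and 0.0661 CPM in control batch1. It rose 20.2-fold with da:da and 409-fold with da, a difference of -4.34 ± 0.53 (adjusted p = 1.48e-05). CG13135, with no role given here, went further: 12.2, 15.2 and 7.90 CPM with da:da, against 0.333, 0.232 and 0.270 CPM in control batch2, and 248 and 508 CPM with da, against 0.0316, 0.0299 and 0.165 CPM in control batch1 (difference -6.90 ± 0.99).

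Among the surface and transport genes, Lachesin (Lac), an immunoglobulin-domain protein of septate junctions, rose by 1.22 ± 0.23 with da:da and by 3.93 ± 0.27 with da, a difference of -2.71 ± 0.36 (adjusted p = 0.000101). It had 42.6, 42.6 and 45.8 CPM in da:da libraries, against 25.3, 13.4 and 17.5 CPM in control batch2, and 46 and 95 CPM in da libraries, against 4.39, 3.80 and 5.72 CPM in control batch1. The da:da libraries lay below both da libraries, which were far apart, and the controls of da:da lay above those of da. Among other septate junction genes, Nrx-IV rose by 0.63 ± 0.11 with da:da and 0.61 ± 0.12 with da (95% interval of the difference -0.32 to 0.37), and vari by 1.34 ± 0.19 with da:da and 1.00 ± 0.21 with da (-0.25 to 0.92). Of the 21 septate junction genes tested, 5 rose and 1 fell with da:da, 10 rose with da and 4 rose in both. The difference was called lower for Lac and higher for nrv2, and for 14 its interval lay within -1 to 1. Over all genes tested, 4.85% rose with da:da and 11.4% with da, and the difference was called for 6.99%. Intervals within -1 to 1 were found for 35.7% of all genes and 53.0% of the 9494 that passed the filter in each batch. The sodium pump subunit nrv2, which belongs to septate junctions too, rose with da:da and was not called with da (-0.18 ± 0.13), with 73.4, 77.3 and 97.0 CPM, against 49.2, 54.9 and 56.6 CPM in control batch2 (difference 0.81 ± 0.17, adjusted p = 0.00682). Vha100-1, a membrane subunit of the proton pump, rose by 0.86 ± 0.13 with da:da and 1.96 ± 0.15 with da (difference -1.10 ± 0.20, adjusted p = 0.00193), while Vha68-2, the catalytic subunit, fell by 0.43 ± 0.10 with da:da and by 0.58 ± 0.11 with da.

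Besides nvy, genes that rose from low control levels in both included CG3650, CG45116, CG14636, CG10621, geko and CG31516. CG3650 had 53.8, 59.5 and 46.4 CPM in da:da libraries, against 0.159, 0 and 0.0809 CPM in control batch2, and 15.7 and 34.5 CPM in da libraries, against 0.0947, 0.0598 and 0 CPM in control batch1. With so few control counts the interval of its difference was wide (0.44, -1.87 to 2.75). CG10621 had 185, 245 and 97.6 CPM in da:da libraries, against 1.98, 2.44 and 2.48 CPM in control batch2, and 310 and 532 CPM in da libraries, against 4.52, 2.84 and 4.59 CPM in control batch1, a 76.4-fold rise with da:da and a 106-fold rise with da. CG13117 rose by 5.89 ± 0.29 with da:da and 5.41 ± 0.30 with da. The limma fit on log2(CPM + 1) called the differences of CG3650 (adjusted p = 0.0321), CG45116 (0.000547) and geko. For geko (-1.23 ± 0.41 here, adjusted p = 0.084) DESeq2 made the call as well, as did the fit without replicate 3 of control batch1 (adjusted p 0.0247 to 0.0292 over these 3).

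Cacophony (cac), the pore-forming subunit of a voltage-gated calcium channel, rose strongly in both. It had 1069, 1357 and 1264 CPM in da:da libraries, against 30.7, 29.4 and 28.6 CPM in control batch2, and 948 and 988 CPM in da libraries, against 22.9, 24.4 and 19.5 CPM in control batch1. Rises of 5.38 ± 0.44 with da:da and 5.44 ± 0.50 with da differed by -0.06 ± 0.67 (95% interval -1.47 to 1.34, so a 2-fold disparity lay inside it). The potassium channel gene Irk2 did not follow it: Irk2 had 3.33 to 3.51 CPM with da:da, against 1.67 to 2.43 CPM in control batch2, but 4.89 and 9.38 CPM with da, against 0.0299 to 0.126 CPM in control batch1 (difference -5.74 ± 0.76, adjusted p = 2.88e-05). Irk3, of the same family, rose 12.3-fold with da and was not called with da:da (-0.38 ± 0.37), with a called difference (adjusted p = 0.000385). The adhesion protein Fas3 had 201, 241 and 299 CPM in da:da libraries, against 10.4, 12.4 and 14.4 CPM in control batch2, and 341 and 383 CPM in da libraries, against 14.5, 21.3 and 22.5 CPM in control batch1. It rose 20.0-fold with da:da and 18.6-fold with da (95% interval of the difference -0.56 to 0.76). Of the surface receptors, Toll-7 rose in both (2.10 ± 0.33 with da:da, 2.31 ± 0.39 with da), rst fell in both (-1.57 ± 0.14 with da:da, -1.52 ± 0.16 with da), and Dscam2 fell with da:da (-1.04 ± 0.24) with a called difference of -1.83 ± 0.38. In the BMP pathway the transcription factor Mad rose by 1.42 ± 0.13 with da:da and 1.17 ± 0.15 with da, and the receptor tkv fell by 0.69 ± 0.12 with da:da and 0.65 ± 0.13 with da.

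The genes that fell most in both included a long non-coding RNA, a cytochrome P450, a pair of peptide hormones and the zinc-finger gene Lime. Dh31, a diuretic hormone of enteroendocrine cells, had 1.77, 1.77 and 2.76 CPM in da:da libraries, against 12.2, 13 and 21.7 CPM in control batch2, and 0.0379 and 0.145 CPM in da libraries, against 5.81, 12.5 and 4.13 CPM in control batch1. CCHa1, another gut peptide, had 2.26, 1.58 and 1.21 CPM in da:da libraries, against 3.78, 7.35 and 16.2 CPM in control batch2, and 3.38 and 0.930 CPM in da libraries, against 50.4, 59.0 and 24.7 CPM in control batch1. Neither difference was called (3.33 ± 1.42 for Dh31, 1.98 ± 0.83 for CCHa1). That of Dh31 was called with the replicate block (adjusted p = 0.0211), with the 11 libraries alone (0.0278) and without replicate 3 of the da knock-down (0.0392). Mean CPM in the da knock-down was also below control batch1 for Dh31 (0.748 against 7.49) and CCHa1 (0.654 against 44.7). CG15126 fell 13.1-fold with da:da and 7.89-fold with da, and Cyp9b1 fell 7.15-fold with da:da and 9.65-fold with da. The falls of lncRNA:CR44138 were 8.29-fold with da:da and 16.5-fold with da, and those of Lime 5.23-fold with da:da and 11.3-fold with da.

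Several enteroendocrine genes fell with da and were not called with da:da. Prospero (pros), the homeodomain factor that marks this fate, had 38.2, 37.3 and 46.8 CPM in da:da libraries, against 28.9, 35.0 and 29.8 CPM in control batch2, and 2.62 and 4.24 CPM in da libraries, against 18.9, 13.9 and 6.97 CPM in control batch1. It fell 3.83-fold with da and was not called with da:da (0.38 ± 0.25), and the difference was 2.32 ± 0.41 (adjusted p = 0.00164). The adaptor gene phyl fell 7.77-fold with da, with a difference of 2.49 ± 0.43 (adjusted p = 0.00081), and the bHLH gene dimm, which drives the secretory programme of peptide cells, fell 4.27-fold with da, with a difference of 2.58 ± 0.48 (adjusted p = 0.00174). The bHLH gene ase lay at 0.502 to 0.579 CPM with da:da, against 0.849 to 1.01 CPM in control batch2, and at 0.0379 and 0 CPM with da, against 0.198 to 1.14 CPM in control batch1. The da:da change of ase (-0.77 ± 0.33, not called) passed the threshold with the replicate block, with each batch fitted alone and without replicate 3 of control batch1 (adjusted p 0.0265 to 0.0398), and that of phyl (-0.47 ± 0.22) with the replicate block (0.0395). The called difference of ase (4.43 ± 1.72, adjusted p = 0.0164) was lost without replicate 2 of da (3.33, adjusted p = 0.154) and on log2(CPM + 1) (0.36, adjusted p = 0.553). Mean CPM in the da knock-down was also below control batch1 for pros (2.01 against 13.2) and phyl (0.0534 against 3.61). The same held for dimm (0.157 against 1.19) and ase (0.0669 against 0.684). What part a high level in control batch1 has in the falls of these genes with da was not tested. Of the 15 enteroendocrine regulators tested, 2 rose and 1 fell with da:da, 1 rose and 4 fell with da, and the difference was called higher for 3. Over all genes tested, 4.85% rose and 4.82% fell with da:da, and 11.4% rose and 9.73% fell with da. The difference was called higher for 2.5% of them.

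The synaptotagmin gene Syt4 had 1.98, 1.82 and 2.78 CPM in da:da libraries, against 1.81, 1.96 and 1.59 CPM in control batch2, and 0.0379 and 0.0872 CPM in da libraries, against 12.7, 9.77 and 11.1 CPM in control batch1. The 165-fold fall with da had no counterpart with da:da (difference 7.67 ± 0.71, adjusted p = 3.93e-08), but the control of batch 2 stood lower than that of batch 1. The peptide gene Mip had no count in either da library and 43 counts in all over control batch1, a fall of at least 9.21-fold against a floor of 3 counts over the group, while da:da libraries held 24.7 to 28.7 CPM, against 22.5 to 28.5 CPM in control batch2. Its difference was not called on log2(CPM + 1) (adjusted p = 0.133). In the da knock-down mean CPM was 0 for Mip, against 0.455 in control batch1, but 15.4 for Syt4, above control batch1 (11.2). The hormone NPF, named after its values were seen because it carries most of the summed markers, had 47.7 and 449 CPM in the da libraries, against 47.7 to 134 CPM in control batch1, and 3334 to 5808 CPM in da:da libraries, against 2800 to 3034 CPM in control batch2. Over the 12 enteroendocrine markers tested, 2 fell with da:da and 6 with da, beside 4.82% and 9.73% of all genes. Their median difference was 1.65, against 0.0314 for all genes. The levels of these markers moved with the batch and with 1 da library as given above, and their part in these results was not tested.

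**Figure D3:**
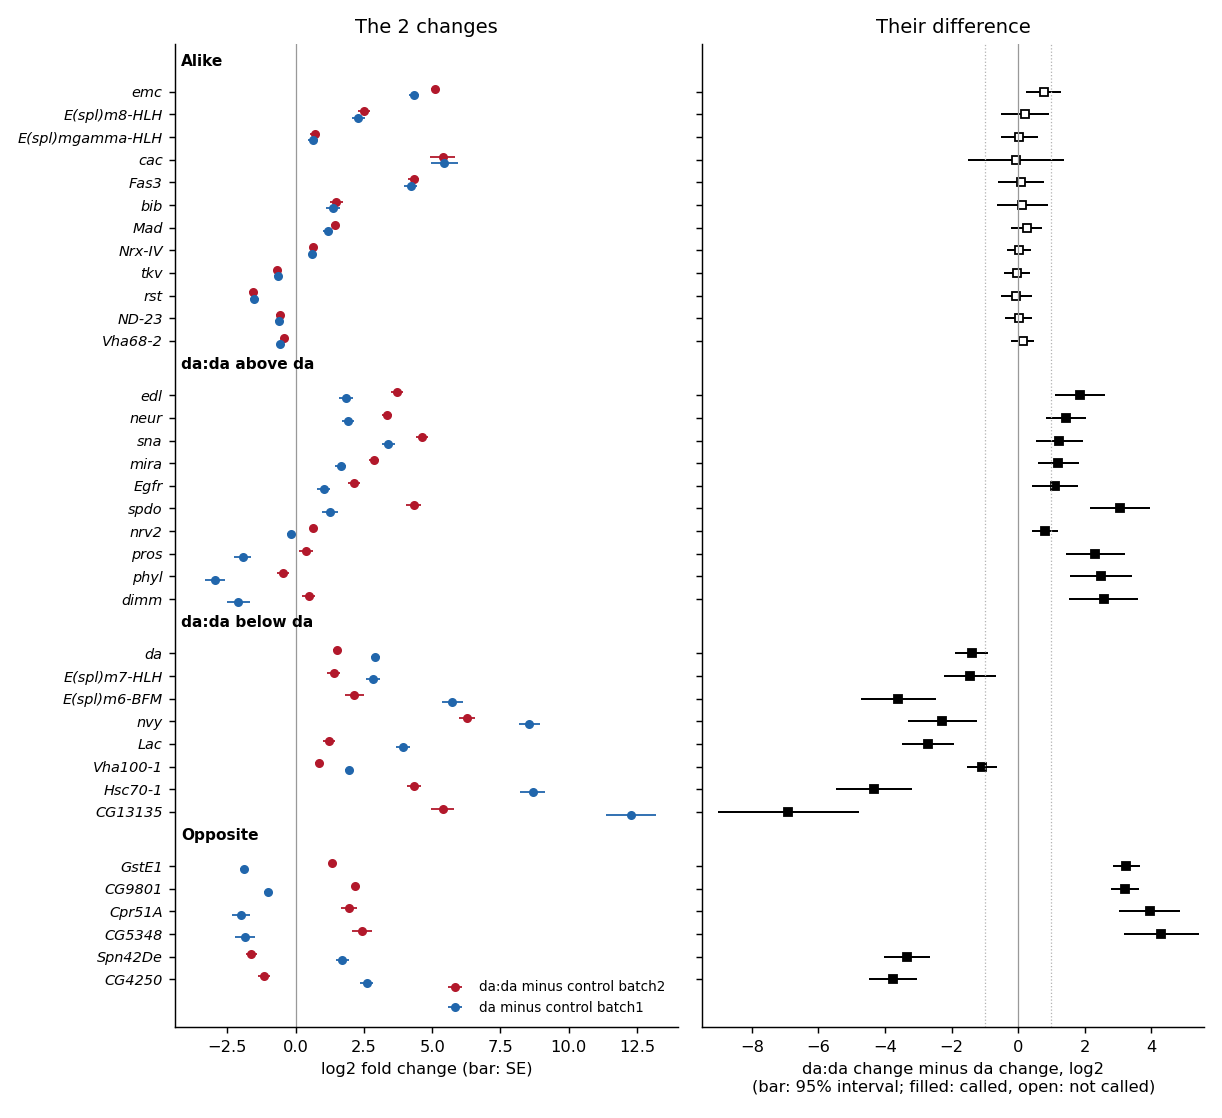
Left, log2 change of 36 genes with da:da (red) and with da (blue), with SE bars; right, da:da change minus da change with its 95% interval, filled where called and open where not, and dotted lines at -1 and 1. The intervals of 11 of the 12 genes under the heading Alike hold 0, that of emc lying above it, and the intervals of the other genes lie to one side of 0.

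Opposite calls were few, and GstE1 was among them. This glutathione S-transferase of the epsilon class had 114, 126 and 109 CPM in da:da libraries, against 43.1, 47.8 and 46.0 CPM in control batch2, and 268 and 214 CPM in da libraries, against 902, 912 and 894 CPM in control batch1. It rose 2.54-fold with da:da and fell 3.74-fold with da, with no overlap in either batch and a difference of 3.25 ± 0.17 (adjusted p = 5.54e-09). The control level of this gene differed between batches by more than either response. Its mean in the da knock-down, 516 CPM, was also below that of control batch1 (902 CPM).

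The same pattern held for CG9801, with 115, 137 and 117 CPM in da:da libraries, against 29.9, 25.8 and 25.3 CPM in control batch2, and 5.39 and 6.88 CPM in da libraries, against 10.8, 12.8 and 13.9 CPM in control batch1 (difference 3.21 ± 0.19). Cpr51A, named as a cuticular protein, had 223, 246 and 168 CPM in da:da libraries, against 42.3, 61.8 and 60.8 CPM in control batch2, and 46.6 and 33.8 CPM in da libraries, against 226, 175 and 81.5 CPM in control batch1 (difference 3.95 ± 0.43). In the other direction the serpin Spn42De had 1.62, 1.45 and 1.62 CPM in da:da libraries, against 4.97, 4.44 and 5.12 CPM in control batch2, and 11.7 and 10.4 CPM in da libraries, against 2.94, 4.15 and 3.01 CPM in control batch1 (difference -3.34 ± 0.31). In each of the 3 genes every overexpression library lay outside the range of its own controls, on opposite sides in the 2 batches.

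Some genes came up from near 0 with da and rose far less or were not called with da:da. CG15322 had no count in control batch1 and 8.69 and 35.5 CPM in da libraries, at least 702-fold higher against a floor of 3 counts over the group, while it had 0.665 to 1.09 CPM with da:da and 0.472 to 1.09 CPM in control batch2. CG12133 also lacked counts in control batch1 and had 38.5 and 54.6 CPM with da, at least 1480-fold higher, and it rose 17.2-fold with da:da as well, to 1.39, 2.06 and 2.53 CPM, against 0.159, 0.116 and 0.0674 CPM in control batch2. The receptor gene Dh31-R had 1.27 to 2.45 CPM with da:da, against 1.62 to 1.87 CPM in control batch2, and 7.93 and 20.6 CPM with da, against 0.0661 to 0.189 CPM in control batch1 (a 121-fold rise with da, adjusted p of the difference = 8.34e-06). The antimicrobial peptide gene Mtk had 0.110 to 0.251 CPM with da:da, against 0.0809 to 0.391 CPM in control batch2, and 6.03 and 17.5 CPM with da, against 0.0299 to 0.126 CPM in control batch1 (difference -7.52 ± 1.05). Cyp309a2, a cytochrome P450, stood at 0.101 to 0.368 CPM with da:da, 0.265 to 0.478 CPM in control batch2, 106 and 94.2 CPM with da and 0.0598 to 0.0947 CPM in control batch1. The 3 libraries with da knocked down, compared with the same batch 1 controls, also held 141, 163 and 155 CPM of Cyp309a2, so its level was high under gain and under loss of da.

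Other genes fell with da and little or not at all with da:da. CG6912 had 38.7, 43.9 and 32.0 CPM in da:da libraries, against 53.9, 55.6 and 58.9 CPM in control batch2, and 0.645 and 0.523 CPM in da libraries, against 40.7, 54.0 and 62.5 CPM in control batch1. From overlapping control levels it fell 90.2-fold with da, against 1.47-fold with da:da, a difference of 5.94 ± 0.33 (adjusted p = 4.43e-09). The smaller fall with da:da (adjusted p = 0.0421) lost its call without any control batch2 library, replicate 1 or 3 of da:da or replicate 2 of control batch1 (0.0522 to 0.186), and with total-count scaling (0.0639). The collagen IV genes Col4a1 and vkg, which encode basement membrane, fell 35.6-fold and 14.8-fold with da and were not called with da:da. Their levels were low throughout: Col4a1 had 0.405 to 0.811 CPM with da:da, 0.418 to 0.724 CPM in control batch2, 0.0759 and 0.174 CPM with da and 1.22 to 7.04 CPM in control batch1. In contrast CG3635 and CG12934 rose with da:da alone (7.4-fold and 6.92-fold), with differences of 3.66 ± 0.48 and 3.40 ± 0.62. CG12934 had 14.9, 20.3 and 25.4 CPM with da:da, against 2.72, 3.12 and 2.93 CPM in control batch2.

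Detoxification genes were divided. Of 35 glutathione S-transferases tested, 2 rose and 9 fell with da:da, 5 rose and 13 fell with da, 6 fell in both, and the difference was called higher for 4 and lower for 5, 25.7% of the list beside 6.99% of all genes. Among all genes, 4.85% rose and 4.82% fell with da:da, 11.4% rose and 9.73% fell with da, and 2.46% fell in both. GstD2 had 29.4, 41.2 and 18.4 CPM in da:da libraries, against 471, 324 and 278 CPM in control batch2, and 1460 and 1058 CPM in da libraries, against 1668, 2483 and 3146 CPM in control batch1. It fell 12.0-fold with da:da (difference -2.64 ± 0.47, adjusted p = 0.00176), and its da change of -0.95 ± 0.35 was not called (adjusted p = 0.0728). GstZ2 fell 5.28-fold with da alone (difference 2.27 ± 0.49, adjusted p = 0.00739, and 0.0737 without replicate 2 of da). GstE2 fell in both, by 1.84 ± 0.19 with da:da and by 2.72 ± 0.20 with da, with a difference of 0.87 ± 0.27 (adjusted p = 0.0686) that was called in 5 of 11 alternative fits and without replicate 2 of control batch2 or 3 of da:da (0.0446 to 0.047).

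Over all genes tested, 9.73% fell with da and 4.82% with da:da, and the difference was called higher for 2.5%. Its interval lay within -1 to 1 for 35.7% of all genes and 53.0% of the 9494 that passed the filter in each batch. Of 71 mitochondrial ribosomal protein genes tested, 36 fell with da and 1 with da:da. Their difference was called for 3, all higher, and 52 had an interval within -1 to 1. The medians were -0.22 with da:da and -0.52 with da. With total-count scaling 11 of them were called in the difference. The 3 called genes were mRpS23, mRpS18B and mRpL10, with differences of 1.25 ± 0.28, 0.90 ± 0.23 and 0.78 ± 0.19, and all 3 calls ended without replicate 2 of da (1.12, 0.77 and 0.68, adjusted p 0.0688, 0.121 and 0.103). Those of mRpS18B and mRpL10 also ended without replicate 1 of control batch1 or 2 of da:da, and that of mRpS18B without replicate 2 of control batch1 or 1 of da:da (adjusted p from 0.0551 for mRpL10 and 0.0569 for mRpS18B).

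Of 79 oxidative phosphorylation genes, 21 fell with da:da, 20 fell and 2 rose with da, 11 fell in both, and the difference was called for 2, both lower. Over all genes tested, 4.82% fell with da:da, 9.73% with da and 2.46% in both, and the difference was called lower for 4.49%. The complex I gene ND-23 had 41.3, 37.1 and 30.9 CPM in da:da libraries, against 53.5, 49.7 and 61.1 CPM in control batch2, and 57.3 and 53.6 CPM in da libraries, against 86.0, 86.0 and 81.0 CPM in control batch1. Its falls of 0.59 ± 0.12 with da:da and 0.61 ± 0.13 with da were close, with a 95% interval of the difference from -0.36 to 0.39. ND-MWFE, another complex I gene, fell 3.92-fold with da:da and was not called with da (difference -2.36 ± 0.26, adjusted p = 1.44e-05), and 35.0% of its exon bases overlap another gene.

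The lists of this paragraph stand beside 4.82% of all genes that fell with da:da, 9.73% that fell with da and 6.99% called in the difference. The interval of the difference lay within -1 to 1 for 35.7% of all genes and 53.0% of the 9494 that passed the filter in each batch. Of 90 cytosolic ribosomal protein genes, 1 fell with da:da and 1 with da, and 80 had an interval of the difference within -1 to 1. The edgeR test called 0 of them in the difference, DESeq2 called 1, limma-voom 0 and limma on log2(CPM + 1) 0, and 4 had an unadjusted p under 0.05. Of 38 mitosis genes, 1 rose with da:da, and 1 rose and 7 fell with da. The edgeR test, DESeq2 and both limma fits called 0 of them in the difference, while 10 had an unadjusted p under 0.05 by edgeR. Their median difference was 0.38, and 17 of the 38 had an interval within -1 to 1. Of 35 replication and S phase genes, 4 fell with da:da, 8 with da and 1 in both, RPA2 (-0.64 ± 0.14 with da:da, -0.87 ± 0.15 with da), a subunit of the protein that coats single-stranded DNA. In that list 18 had an interval within -1 to 1, and the difference was called for 1, the cyclin-dependent kinase gene Cdk2, which fell with da (-0.94 ± 0.21) and was not called with da:da (0.13 ± 0.19). Its difference of 1.07 ± 0.28 (adjusted p = 0.0279) lost its call without replicate 2 of control batch1, 1 or 2 of da, 1 or 2 of control batch2 or 1 or 2 of da:da (adjusted p 0.0523 to 0.0907), and with the 11 libraries alone (0.0541).

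**Figure D4:**
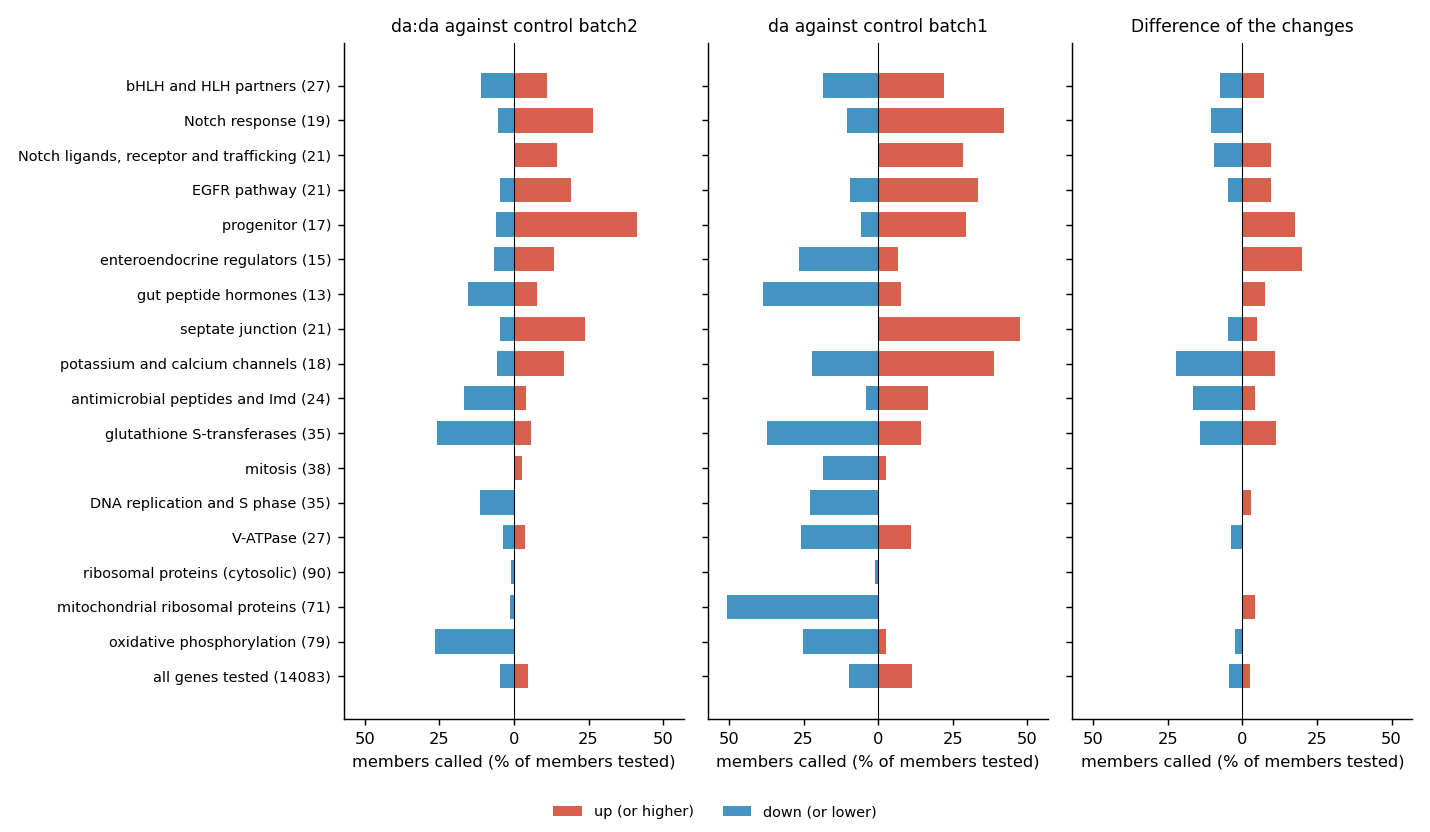
Members called up (red, to the right) and down (blue, to the left) as a percentage of the members tested, for 17 gene lists and all genes, with da:da (left), with da (middle) and in the difference (right, higher and lower); numbers tested are in brackets. Of 71 mitochondrial ribosomal protein genes, 36 were called down with da and 1 with da:da. Their median changes were -0.52 with da and -0.22 with da:da, and the difference was called for 3. Of 79 oxidative phosphorylation genes, 21 were called down with da:da and 20 with da.

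The share of genes called in the difference varied with level. It was 4.25% of the 5698 genes under a mean of 1 CPM over the 4 groups, 10.9% of the 3064 at 1 to 10 CPM, 7.72% of the 4131 at 10 to 100 CPM and 7.48% of the 1190 at 100 CPM or more, with median standard errors of 0.971, 0.405, 0.208 and 0.201. The control groups also detected genes unequally: 1416 tested genes had no count in the 3 control batch1 libraries and 4 had none in the 3 control batch2 libraries. Of the 633 genes called lower, 310 had a mean under 1 CPM in control batch1. Where control batch1 was under 1 CPM and control batch2 was not, 25 of 1173 genes were called higher and 103 lower, and in the reverse case 43 of 242 were called higher and 4 lower. Among the 7429 genes with at least 1 CPM in both control groups, 226 were called higher and 319 lower. What part the unequal detection has in the excess of lower calls was not tested.

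**Figure D5:**
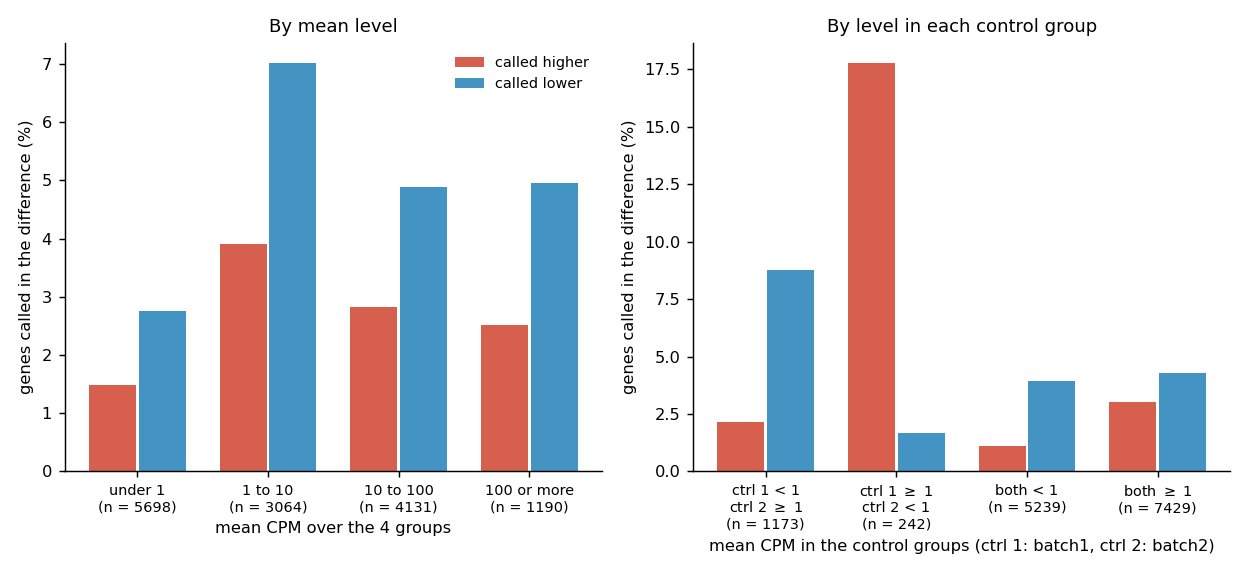
Percentage of genes whose difference was called higher (red) or lower (blue), by mean CPM over the 4 groups (left) and by whether the mean of control batch1 (ctrl 1) and control batch2 (ctrl 2) reached 1 CPM (right), with the number of genes tested in brackets. Higher calls outnumber lower ones only where control batch1 reached 1 CPM and control batch2 did not (43 against 4 of 242 genes).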

How the data were processed

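Messenger RNA of sorted esg-positive cells was sequenced, in batch 1 as single reads of 50 nt and in batch 2 as paired reads of 150 nt, per the labels. The counts are raw read counts per gene that the authors made with featureCounts 2.0.2 on BDGP 6.28, annotation release 101, per the file headers, without a strand option. In batch 2 each mate of a pair was counted, per the file headers. The aligner is not given in the sources used here. The authors also deposited log2 fold changes for each overexpression. The difference taken between the log2 values in the authors' deposited table correlated with the fitted difference at 0.988 over 9986 genes, a description across genes.

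In R 4.3.3, edgeR 4.0.16 fitted 1 mean for each of 6 groups to all 17 libraries (filterByExpr by group, TMM, quasi-likelihood F tests, two-sided, Benjamini-Hochberg over 14083 genes, called at an adjusted p under 0.05). The biological coefficient of variation was 0.212. CPM are counts scaled to a common library size with TMM factors. Standard errors and 95% intervals are Wald values with the quasi-likelihood variance, not adjusted for the number of genes, and none is given where a group had too few counts. A floor of 3 counts over a group bounds folds against groups with no count, for counting error only. Symbols came from the authors' sheets (9986 genes) or a gene name table (7760), and 61 genes had none. The workbook's 17 columns of counts were not used. The script was tested on simulated data.

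Named genes were da, sc, emc and 9 markers, the 10 with the largest difference each way, the 10 that rose and 10 that fell most in both, up to 10 called oppositely, and members of gene lists: up to 4 called in the difference and up to 3 called alike in both, with all members of the Notch response and bHLH lists allowed. The ranked genes needed 10 CPM in 1 of the 4 groups, and the first 2 sets no overlap of libraries. Members and lists were chosen with earlier results of these data known. Deviations of same-numbered libraries of an overexpression and its control correlated at -0.21 to 0.0303, so replicate numbers were not taken to pair samples. Alternatives were other scalings, filters, tools (DESeq2 1.42.0, limma 3.58.1), halved batch 2 counts, a replicate block and each library left out.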

Additional observations from a re-analysis of the deposited data

Results flagged for a closer look

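Among the genes called in opposite directions, 10 with at least 10 CPM in a group were picked out by the test of the difference between the da:da change and the da change. The difference was 4.307 for CG5348, 3.949 for Cpr51A, 3.251 for GstE1, 3.212 for CG9801 and 3.118 for unc-104, a kinesin motor gene, all of which rose with da:da and fell with da. It was -7.868 for Cyp309a1, -3.752 for CG4250, -3.341 for Spn42De, -2.988 for Prosap, a synaptic scaffold gene, and -2.653 for CG18067, which fell with da:da and rose with da. All 10 differences stayed past the threshold in every alternative fit that gave a value and with every library left out. Since the 10 were picked for large differences in the same data, this is no separate support for them. CG5348 (chromosome arm 2R, bases 16766804 to 16769238) lies within the span of unc-104 (bases 16751503 to 16772671), on the other strand. No exon bases of CG5348 overlap another gene, but counting ignored strand. Whether reads from introns of unc-104 were counted for CG5348 was not tested, so the 2 may not be separate cases.

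For 4 of the 10 the opposite call rests on a weaker change. The fall of Cyp309a1 with da:da (-1.20, adjusted p = 0.0462) was lost without any of 7 libraries, replicate 2 of control batch1, 1 and 2 of da, 3 of control batch2, 2 and 3 of da:da and 3 of the da knock-down (adjusted p 0.0518 to 0.295), and in 7 alternative fits. The fall of unc-104 with da (-0.87, adjusted p = 0.0423) was lost without any of 6, replicates 1 and 2 of control batch1, 2 of da, 2 of control batch2, 2 of da:da and 2 of scute (0.0506 to 0.337). Without replicate 2 of da, the rises with da of Prosap and CG18067 had adjusted p-values of 0.0503 and 0.123.

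The libraries with da knocked down, which the comparison does not use, were high for 4 genes that were high with da overexpressed. Cyp309a2 averaged 153 CPM in them, Cyp309a1 23.58 CPM, CG4250 28.99 CPM and Prosap 63.93 CPM. Cyp309a2 averaged 100 CPM in da libraries and 0.0735 CPM in control batch1, and Cyp309a1 18.4 CPM in da libraries and 0.179 CPM in control batch1. CG4250 averaged 29.7 CPM in da libraries and 4.88 CPM in control batch1, and Prosap 28.7 CPM in da libraries and 13 CPM in control batch1. In each gene every knock-down library was above every library of control batch1. The knock-down and the da overexpression share these controls, and no test was made between them. For these 4 genes a change with da cannot be told apart from a low level in control batch1. The opposite calls of Cyp309a1, CG4250 and Prosap carry the same limit. Only genes that rose with da were screened in this way. Of the opposite genes above that fell with da, mean CPM was also lower in the knock-down than in control batch1 for Cpr51A (16.2 against 161), CG5348 (6.36 against 29.8), unc-104 (227 against 451) and GstE1 (516 against 902). For Cpr51A, CG5348 and unc-104 the fall with da cannot be told apart from a high level in control batch1. In GstE1 the da libraries (268 and 214 CPM) lay below the knock-down mean too. What part the level of control batch1 has in its fall was not tested. For CG9801 the knock-down mean was the higher one (38.5 against 12.5 CPM).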

How the results depend on the processing

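The da group has 2 libraries and lies in another batch than da:da, so a single library decides many calls. With each library left out in turn, the difference was called for 680 to 1057 genes (242 to 410 higher, 424 to 688 lower), the da:da change for 1027 to 1495 and the da change for 1982 to 3125. Opposite calls ranged from 28 to 55, rises in both from 371 to 466 and falls in both from 234 to 404. The fewest difference calls came without replicate 2 of da, where 550 of the 985 were called again. The 28 opposite calls came without replicate 2 of da:da. DESeq2 gave 70 opposite calls, against 46, and 1394 called differences, 968 of them among the 985. A floor of 1 CPM in both control groups, chosen after seeing the data as was the limma fit on log2(CPM + 1), gave 643 called differences, 348 of them lower, with 532 of the 643 among the 985. That floor and the filter passed in each batch moved the share of higher calls to 45.9% and 45.3%. The replicate block, whose numbers do not pair the libraries, called 1182 differences (467 higher, 715 lower) and 63 opposite genes. Of the 61 differences called among the genes examined one by one, 44 held in every alternative that gave a value, and no called change turned its direction. With batch 2 counts halved 973 of the 985 were called again. Standard errors were widest for genes under 1 CPM, which limits what can be called there.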

Other observations

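Of 17 progenitor genes tested, 7 rose and 1 fell with da:da, 5 rose and 1 fell with da, 5 rose in both, and the difference was called for 3, all higher, spdo, mira and Egfr. The median difference of the list was 0.41, against 0.0314 for all genes tested. In all genes tested, 4.85% rose and 4.82% fell with da:da, 11.4% rose and 9.73% fell with da, and the difference was called for 6.99%. By edgeR it was called for 0 of 10 JAK-STAT genes (1 by DESeq2, 0 by both limma fits, 2 at an unadjusted p under 0.05 by edgeR). Of 19 Wingless and BMP genes, 2 rose and 2 fell with da:da, and 4 rose and 1 fell with da. Their difference was called for 0 by edgeR and both limma fits and for 2 by DESeq2, with 5 at an unadjusted p under 0.05 by edgeR. Of 13 Hippo genes, 1 rose with da:da and 3 with da, and the difference was called for 0 by edgeR, DESeq2 and both limma fits, with 1 at an unadjusted p under 0.05 by edgeR.

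Of 24 antimicrobial peptide and Imd genes tested, 1 rose and 4 fell with da:da, 4 rose and 1 fell with da, and the difference was called higher for 1 and lower for 4, with a median difference of -0.73, beside 2.5% higher and 4.49% lower over all genes. DESeq2 called 5 members and each limma fit 3. Of 18 potassium and calcium channel genes, 3 rose and 1 fell with da:da, 7 rose and 4 fell with da, and the difference was called higher for 2 and lower for 4. DESeq2 called 7 of them, limma-voom 3 and limma on log2(CPM + 1) 2. Both lists stand beside 4.85% of all genes up and 4.82% down with da:da, and 11.4% up and 9.73% down with da. CG12896, with no role given here, had 0.492, 0.975 and 1.17 CPM in da:da libraries, against 0.637, 0.862 and 0.795 CPM in control batch2, and 2.66 and 1.71 CPM in da libraries, against 20.8, 25.4 and 93.9 CPM in control batch1. Its difference of 4.62 ± 0.74 had an adjusted p of 0.000876, and the control libraries of batch 1 were spread over a wide range.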
